A study of Mus musculus with 12 samples.

Results

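Hematopoietic stem and progenitor cells are told apart by proteins on their surface, and 9 genes that encode such proteins are described here: Slamf1 (CD150), Cd48, Ly6a (Sca-1), Cd34, Procr (EPCR), Thy1 (CD90), Ly9 (CD229), Cd84 and Slamf6 (Ly108). They were chosen by name, with earlier results of these data known. Some are antigens used to sort these cells, and the others are further SLAM receptors or other markers of stem and progenitor cells. Of the 9 genes, 8 had a probe set that the array annotation assigns to 1 gene symbol, with 13 probe sets in all, among 18193 genes and 45037 probe sets tested. Ly6a had no such probe set and was not analysed here. Each gene is given by its brightest probe set on average (the leading probe set), and the other probe sets are given as checks.

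The samples were sorted liver cells of mice homozygous for the Q202L knock-in (KI), a point mutation of the transcription factor PU.1 (gene Spi1) made by targeting embryonic stem cells, and of wild-type (WT) littermates, with 3 arrays in each of 4 groups. The groups were ST-HSC and GMP-like cells of KI mice and ST-HSC and GMP of WT mice. ST-HSC are short-term hematopoietic stem cells and GMP are granulocyte-macrophage progenitors. No sample was treated. The sample records name newborn liver of C57Bl/6 mice, whereas the study describes fetal liver for the arrays. Its reporting summary gives a mixed strain background and lists both embryonic and newborn ages. The records gate ST-HSC as negative for lineage markers and CD150 and positive for Sca-1, c-kit and CD48, whereas the series title and the methods give CD48-negative cells. The GMP gate was negative for lineage markers and Sca-1, positive for c-kit and CD34, and high for Fcγ receptors II and III, and the study describes the KI GMP-like cells as intermediate for CD34. How many animals went into a sample is not stated, and p-values then reflect only how these samples vary, part of which may be technical.

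The SLAM family are receptors of the immunoglobulin superfamily on hematopoietic cells. Most of them bind a copy of themselves on a neighbouring cell, CD48 instead pairs with CD244 and CD2, and several signal through the adaptor SAP (Sh2d1a) and the kinase Fyn. In the mouse, CD150 without CD48 marks long-term HSC, and CD48 appears on multipotent and restricted progenitors. Sca-1 is a GPI-anchored Ly6 protein of stem cells, CD34 is a sialomucin of progenitors and endothelium, EPCR is the receptor of protein C and is high on HSC, and Thy1 is a GPI-anchored protein that is low on HSC and high on T cells.

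RefSeq promoter sequences (assembly GRCm38.p6, 250 bases before the start) were held for 6 of the 9 genes, and none was held for Ly6a, Thy1 or Ly9. Of the genes below, Slamf1 and Cd34 are shown because their RNA differed between KI and WT, and Procr and Cd84 because their windows hold the AP-1 motif TGANTCA, printed in capitals. The positions are chr1:171766882-171767131 for Slamf1, chr1:194938571-194938820 for Cd34, chr2:155750967-155751216 for Procr and chr1:171839447-171839696 for Cd84, all on the plus strand and all upstream of the annotated first exon.
Slamf1: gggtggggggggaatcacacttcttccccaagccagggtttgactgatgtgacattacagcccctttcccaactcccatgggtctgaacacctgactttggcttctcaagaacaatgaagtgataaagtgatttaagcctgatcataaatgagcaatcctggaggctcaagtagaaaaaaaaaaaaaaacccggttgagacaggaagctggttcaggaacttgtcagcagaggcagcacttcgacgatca
Cd34: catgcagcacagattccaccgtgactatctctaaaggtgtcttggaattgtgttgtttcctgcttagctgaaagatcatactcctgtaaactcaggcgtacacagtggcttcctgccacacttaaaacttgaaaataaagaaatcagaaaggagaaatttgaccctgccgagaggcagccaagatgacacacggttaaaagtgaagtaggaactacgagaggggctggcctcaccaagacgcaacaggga
Procr: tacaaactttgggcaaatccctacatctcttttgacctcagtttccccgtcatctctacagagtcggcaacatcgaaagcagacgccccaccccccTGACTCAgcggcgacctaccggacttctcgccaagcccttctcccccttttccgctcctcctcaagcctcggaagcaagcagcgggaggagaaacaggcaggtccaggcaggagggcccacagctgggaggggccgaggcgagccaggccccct
Cd84: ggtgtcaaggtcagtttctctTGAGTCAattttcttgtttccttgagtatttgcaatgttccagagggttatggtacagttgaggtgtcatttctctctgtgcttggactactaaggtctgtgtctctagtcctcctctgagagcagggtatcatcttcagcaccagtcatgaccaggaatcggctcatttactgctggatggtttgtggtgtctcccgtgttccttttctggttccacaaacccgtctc
The AP-1 motif stood 154 bases before the start in Procr and 229 bases before it in Cd84. Of 32851 promoter windows of this length, 6.75% held this motif on either strand. A PU.1 motif, searched only as GAGGAA, was in 23.3% of the windows and in 0 of the 6 member windows. Shorter or other forms of the PU.1 site were not searched. The motif of the GATA factors, searched as AGATAA, was in 9.99% and in 0 of the 6. These matches describe the letters in the window only.

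Values are log2 RMA values, so that a difference of 1 is a doubling, and differences are KI minus WT from limma with Benjamini-Hochberg adjustment over all probe sets, called at an adjusted p under 0.05. In ST-HSC, Slamf1 was higher in KI, Cd34 and Thy1 were lower, and 5 of the 8 genes did not pass the test, of which Ly9 and Slamf6 had an unadjusted p under 0.05. Over all genes, 1.33% were called higher and 1.68% lower in KI ST-HSC. In GMP, Cd34 was lower in KI and 7 did not pass, of which Ly9 and Cd84 had an unadjusted p under 0.05, where 1.19% of all genes were called higher and 1.4% lower. The median difference of the 8 genes was -0.46 in ST-HSC and -0.28 in GMP, against -0.02 and -0.03 over all genes. The difference between the populations (the GMP difference minus the ST-HSC difference) was called higher for 0.0275% and lower for 0.022% of all genes and for 0 of the 8 genes by limma, with 2 of them, Slamf1 and Cd34, at an unadjusted p under 0.05.

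**Figure D1:**
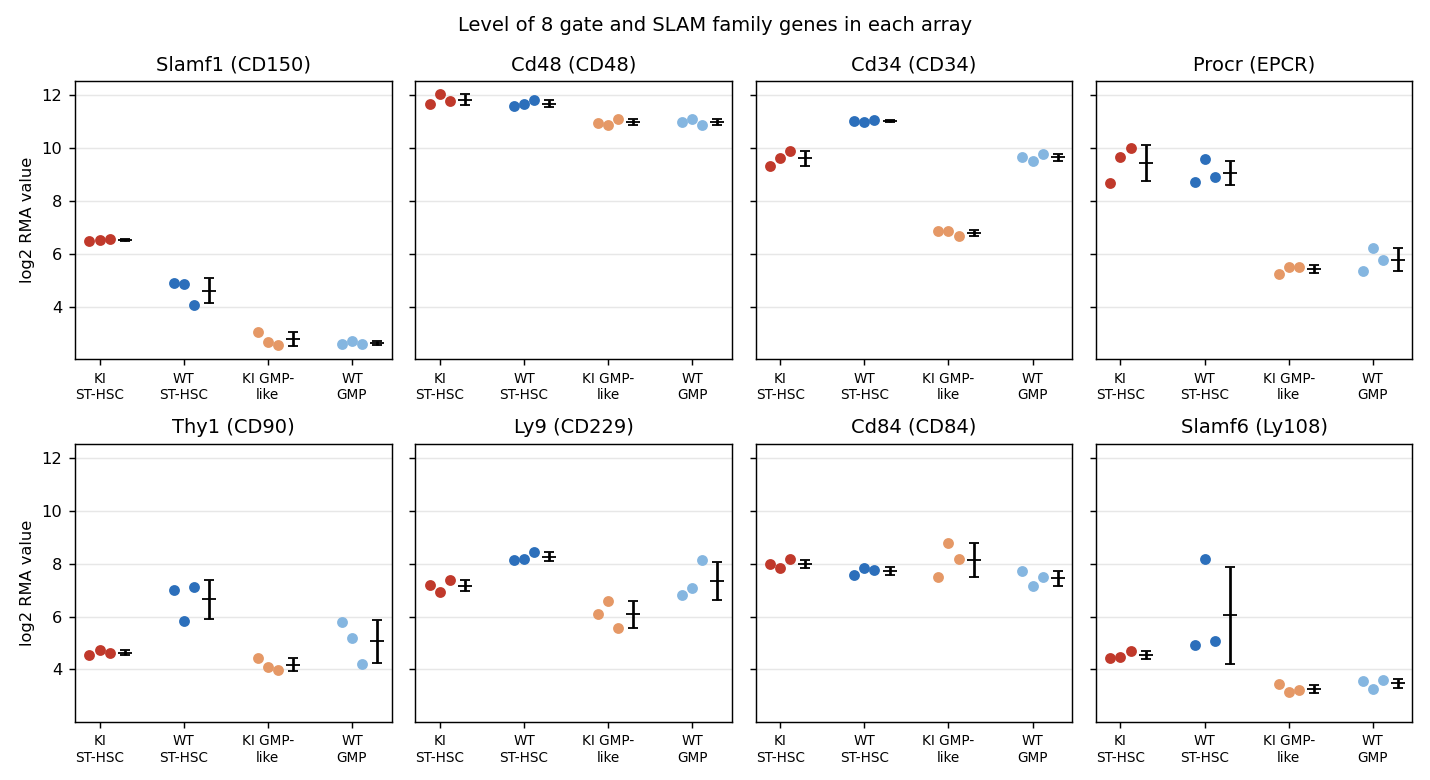
Log2 RMA value (y axis, arbitrary units) of the 8 measured genes in each of the 12 arrays, with 1 point per array and the bar showing mean ± SD of the 3 arrays of a group. Slamf1 in KI ST-HSC lies at 6.50 to 6.54, above every other array, and Cd34 in KI GMP-like cells lies at 6.66 to 6.86, below every other array.

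The median log2 value of an array was 5.00 to 5.10 in ST-HSC and at most 4.79 in GMP, so that levels are tested within a population only. Replicates of a group correlated at r of 0.963 to 0.990 over all probe sets. Spi1 itself differed by 0.17 in ST-HSC (adjusted p = 0.798, limma) and by 0.39 in GMP (adjusted p = 0.384, limma), and since the point mutation leaves the transcript in place this checks no label. Xist, the RNA that coats the inactive X chromosome, was at 10.67 to 11.74 in replicates 1 and 3 of WT ST-HSC and WT GMP and at 2.98 to 3.78 in the other 8 arrays. High Xist was thus seen in WT arrays alone, and values without these 4 arrays are given where they end or make a call. Such fits keep 1 WT array, replicate 2, in each population, and the spread then comes from the other groups. In these bulk samples, fewer cells of a type and less RNA per cell cannot be told apart.

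Slamf1 encodes CD150, the antigen that the ST-HSC gate excluded. Its RNA was at 6.50, 6.54 and 6.54 in KI ST-HSC and at 4.90, 4.86 and 4.05 in WT ST-HSC. The 3 KI arrays were nearly equal and lay above all WT arrays, and the spread was in the WT arrays. The difference was 1.92 (SE 0.22, 95% interval 1.43 to 2.41), a 3.79-fold higher level in KI (adjusted p = 0.00132, limma).

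Both other Slamf1 probe sets gave the same direction in ST-HSC. On the first, the KI arrays were at 6.12, 6.12 and 6.61 and the WT arrays at 3.67, 4.85 and 3.30, a difference of 2.34 (adjusted p = 0.00383, limma). On the second they were at 5.17, 5.32 and 5.18 against 2.85, 4.01 and 3.50, a difference of 1.77 (adjusted p = 0.00429, limma). No KI array overlapped a WT array on any of the 3 probe sets. In GMP the leading probe set read 3.05, 2.68 and 2.55 in KI GMP-like cells and 2.59, 2.71 and 2.58 in WT GMP, all below every ST-HSC array. The groups overlapped, the difference was 0.14 (95% interval -0.35 to 0.62, adjusted p = 0.869, limma), and its sign was negative on both other probe sets. In GMP all 3 probe sets lay below the lower quartile of every GMP array (quartiles of 3.31 to 3.41). At so low a signal a difference could be missed.

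The difference between the populations for Slamf1 was -1.78 (SE 0.31), which did not pass (adjusted p = 0.10, limma). It uses the low GMP values above, so it cannot show whether the effect is limited to ST-HSC. With the probe sets of a gene averaged in place of the leading one, this difference was -2.02 and passed, over fewer tests (adjusted p = 0.0262, limma). The mean of 9 megakaryocyte markers ranged from 6.61 to 6.78 in KI ST-HSC and from 5.15 to 5.75 in WT ST-HSC. Of the 9, 3 were called higher, among them Pf4, platelet factor 4, by 3.49, and 6 did not pass. At an unadjusted p under 0.05 (limma), 6 of the 9 were higher and 0 lower. The flattest was Gp9, a subunit of the platelet receptor of von Willebrand factor, which differed by -0.01. Mast cell and basophil markers averaged 7.64 to 7.99 in KI ST-HSC and 6.24 to 7.66 in WT ST-HSC, with 4 of 8 called higher, and erythroid markers 7.02 to 7.63 and 5.11 to 6.07, also with 4 of 8 called higher. At an unadjusted p under 0.05 (limma), 4 mast cell and basophil markers were higher and 1 lower. For erythroid markers, 7 were higher and 0 lower. Their part in the Slamf1 result was not tested. Of 10 markers of long-term HSC, the population that carries CD150, 0 were called in ST-HSC by limma and 0 had an unadjusted p under 0.05, and their means ranged from 7.43 to 7.91 in KI and from 7.31 to 7.80 in WT. The part of long-term HSC in the Slamf1 result was not tested either.

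Cd48 encodes the partner antigen of CD150 in the gate. It was at 11.66, 12.06 and 11.80 in KI ST-HSC and at 11.58, 11.66 and 11.82 in WT ST-HSC. In GMP it was at 10.94, 10.88 and 11.11 in KI and at 10.98, 11.12 and 10.87 in WT. The groups overlapped in both populations, and the GMP arrays lay below the ST-HSC arrays. The difference was 0.16 in ST-HSC (95% interval -0.16 to 0.47, adjusted p = 0.742, limma) and -0.02 in GMP (95% interval -0.33 to 0.30, adjusted p = 0.981, limma), and the sign in GMP turned under quantile normalization, to 0.05.

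Cd34 had the largest difference of the 8 genes in GMP. In KI GMP-like cells it was at 6.85, 6.86 and 6.66, and in WT GMP at 9.66, 9.53 and 9.80. The 2 groups stood well apart, with little spread within either. The difference was -2.87 (SE 0.15, 95% interval -3.21 to -2.54), a 7.33-fold lower level in KI (adjusted p = 6.98e-06, limma). The study prints the change of this probe set with a positive sign, and the direction here is that of the arrays by their labels. CD34 protein is part of the GMP gate, and the KI cells were sorted with intermediate CD34, so that this difference is not independent of the sort.

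In ST-HSC, where the gate did not use CD34, the values were 9.33, 9.64 and 9.87 in KI and 11.03, 10.98 and 11.06 in WT. All KI arrays were lower, with a difference of -1.41 (SE 0.15, 95% interval -1.75 to -1.07), which is 2.66-fold (adjusted p = 0.00103, limma). In order of mean level, WT ST-HSC at 11.03 came first, then WT GMP at 9.66 and KI ST-HSC at 9.62, whose arrays overlapped, and KI GMP-like cells at 6.79 came last. The difference between the populations was -1.46 (95% interval -1.94 to -0.99) and just missed the threshold (adjusted p = 0.0559, limma). It passed without KI ST-HSC replicate 1 (adjusted p = 0.0483) and with the mean of probe sets, over fewer tests (adjusted p = 0.0227). Endothelial markers, which share CD34 with progenitors, gave 0 of 10 calls by limma in either population (at an unadjusted p under 0.05, 2 higher and 1 lower in ST-HSC and 0 in GMP), with array means of 5.83 to 6.08 in KI and 5.66 to 5.73 in WT ST-HSC, and of 4.40 to 5.11 in KI and 4.71 to 4.91 in WT GMP.

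Procr encodes EPCR, whose probe set can also bind related transcripts by its name suffix. It was at 8.67, 9.65 and 10.00 in KI ST-HSC and at 8.72, 9.58 and 8.89 in WT ST-HSC. The replicates spread over more than 1 log2 unit in KI and the groups overlapped. The difference was 0.38 (95% interval -0.40 to 1.15, adjusted p = 0.749, limma), and it was -0.14 once the high-Xist WT arrays were left out. In GMP it was at 5.24, 5.52 and 5.52 in KI and at 5.35, 6.21 and 5.76 in WT, a difference of -0.35 (95% interval -1.12 to 0.43, adjusted p = 0.756, limma). Every ST-HSC array lay far above every GMP array.

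Thy1 was at 4.55, 4.73 and 4.61 in KI ST-HSC and at 6.99, 5.82 and 7.14 in WT ST-HSC. The KI arrays were close together and all below the WT arrays, of which replicate 2 was the lowest. The difference was -2.02 (SE 0.41, 95% interval -2.93 to -1.11), 4.05-fold lower in KI (adjusted p = 0.0305, limma). The call was lost in 5 of the 6 fits that left out 1 ST-HSC array, with adjusted p of 0.101, 0.108 and 0.104 without KI replicates 1, 2 and 3 and of 0.0856 and 0.111 without WT replicates 1 and 3. The 2 WT arrays with the highest Thy1 were those of high Xist, and with all high-Xist WT arrays left out the remaining WT array gave a difference of -1.19 (adjusted p = 0.0512, limma, with 1 WT array assumed to vary like the other groups).

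In GMP, Thy1 was at 4.44, 4.10 and 3.97 in KI and at 5.80, 5.20 and 4.19 in WT. WT replicate 3 fell within the KI range, and the difference of -0.89 did not pass (95% interval -1.80 to 0.01, adjusted p = 0.358, limma). The difference between the populations was 1.12 (adjusted p = 0.698, limma). Markers of T and NK cells, which carry Thy1, are given beside it. Their mean over 8 genes ranged from 5.39 to 5.55 in KI and from 5.21 to 5.35 in WT ST-HSC, and from 5.34 to 5.58 in KI and 4.96 to 5.29 in WT GMP. In each population 1 of the 8 was called, Nkg7 higher in KI ST-HSC and Cd3g higher in KI GMP-like cells. At an unadjusted p under 0.05 (limma), 2 were higher and 1 lower in each population. In ST-HSC, Cd3g averaged 5.70 in KI and 4.98 in WT without overlap (adjusted p = 0.376, limma). Cd3e, a defining subunit of the T cell receptor complex, averaged 2.86 in KI and 2.75 in WT ST-HSC. Both means lay below the lower quartiles of the ST-HSC arrays (3.51 to 3.63), where a difference could be missed.

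**Figure D2:**
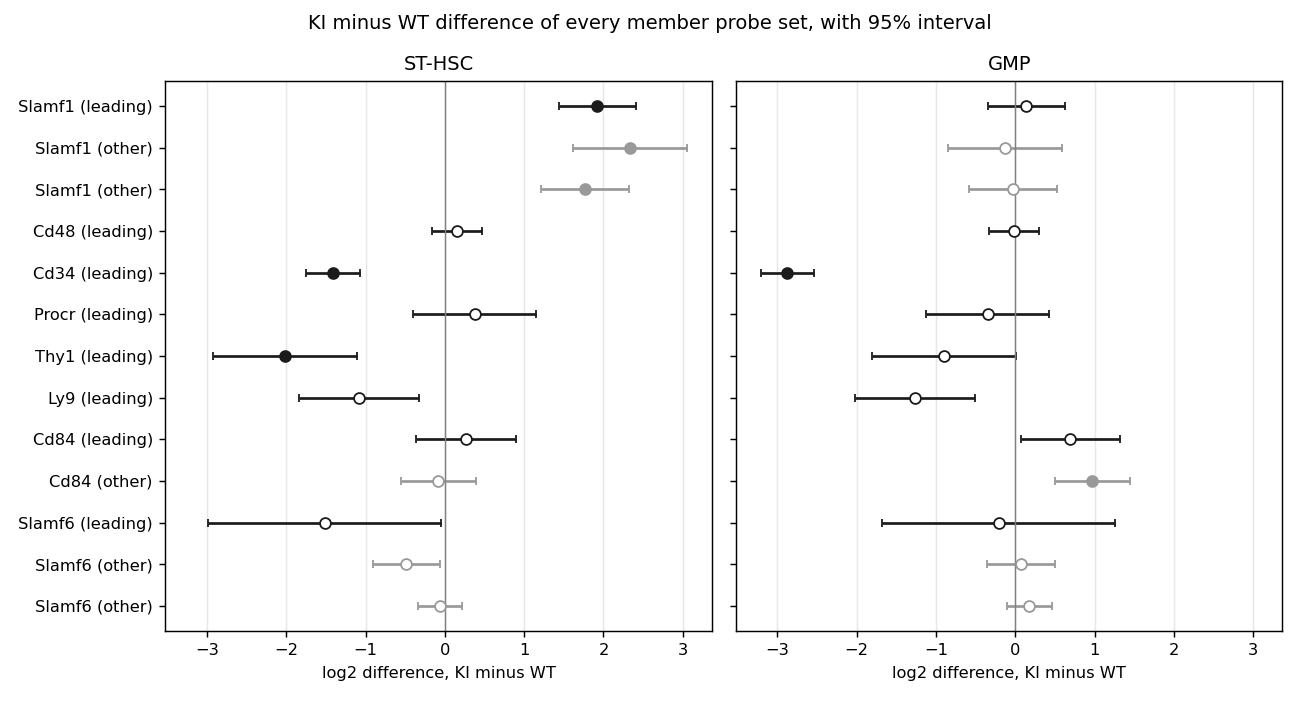
KI minus WT difference in log2 units (x axis, same scale in both panels) for each of the 13 probe sets, with 95% intervals from the limma fit, black for the leading and grey for the other probe sets, filled where the adjusted p was under 0.05. All 3 Slamf1 probe sets lie to the right of 0 in ST-HSC, with 1.92 for the leading one, and Cd34 lies to the left in both populations, at -1.41 and -2.87.

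Ly9, a SLAM receptor that binds itself and is used with CD244 to divide multipotent progenitors, did not pass the test in either population. It was at 7.19, 6.95 and 7.38 in KI and 8.15, 8.17 and 8.45 in WT ST-HSC. In GMP it was at 6.08, 6.60 and 5.57 in KI and 6.82, 7.07 and 8.15 in WT. KI and WT did not overlap in either population. The difference was -1.08 in ST-HSC (95% interval -1.84 to -0.33, adjusted p = 0.170, limma) and -1.26 in GMP (95% interval -2.02 to -0.51, adjusted p = 0.0942, limma). Fitted on the 6 ST-HSC arrays alone, the ST-HSC difference passed (adjusted p = 0.0380, limma).

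Cd84, a SLAM receptor that binds itself and is abundant on mast cells and platelets, was at 7.97, 7.83 and 8.16 in KI and at 7.56, 7.85 and 7.75 in WT ST-HSC, with overlap and a difference of 0.27 (95% interval -0.36 to 0.89, adjusted p = 0.790, limma). In GMP it was at 7.48, 8.79 and 8.16 in KI and at 7.71, 7.15 and 7.49 in WT. KI replicate 1 lay within the WT range, and the difference of 0.69 did not pass (95% interval 0.07 to 1.32, adjusted p = 0.287, limma). The second, dimmer Cd84 probe set read 3.85, 4.71 and 4.16 in KI and 3.47, 3.30 and 3.02 in WT GMP. There the groups did not overlap and the difference of 0.97 was called higher (SE 0.21, adjusted p = 0.0459, limma), whereas in ST-HSC the same probe set differed by -0.08 (adjusted p = 0.933, limma). The 2 probe sets thus disagree on the call in GMP and not on its direction. The WT GMP values of the dimmer probe set lay near or below the lower quartiles of the GMP arrays (3.31 to 3.41), so this call rests on a low signal. Mast cell and basophil markers in GMP averaged 7.98 to 8.91 in KI and 7.79 to 8.39 in WT, with 2 of 8 called higher and 1 lower, and their part in the Cd84 values was not tested.

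Slamf6, a SLAM receptor of lymphocytes that binds itself, was at 4.43, 4.47 and 4.70 in KI ST-HSC and at 4.93, 8.16 and 5.06 in WT ST-HSC. WT replicate 2 stood alone, while the other WT arrays were within 1 log2 unit of the KI arrays. The difference of -1.52 had an SE of 0.67 and did not pass (adjusted p = 0.367, limma), and without WT ST-HSC replicate 2 it was -0.46 (adjusted p = 0.272, limma). It was -3.63 and passed when the high-Xist WT arrays were left out (adjusted p = 0.00119, limma), but the WT ST-HSC group is then the single array at 8.16, assumed to vary like the other groups, so that this p says nothing of the other WT arrays. On the first of the other Slamf6 probe sets this array was the lowest WT ST-HSC array, at 2.41 beside 2.86 and 3.21. On the second it was the highest, at 4.66 beside 4.32 and 4.33, a far smaller gap than on the leading probe set. In GMP the leading probe set was at 3.43, 3.13 and 3.22 in KI and at 3.54, 3.27 and 3.61 in WT, with overlap and a difference of -0.21 (adjusted p = 0.942, limma).

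B cell markers, given beside Slamf6 and Ly9, had means of 4.49 to 4.60 in KI and 6.09 to 6.96 in WT ST-HSC, and 3 of 9 were called lower, against 4.46 to 4.86 in KI and 4.72 to 5.13 in WT GMP with 1 called lower. Monocyte and macrophage markers averaged 4.43 to 4.73 in KI and 7.86 to 8.44 in WT ST-HSC with 5 of 10 called lower, and 4.86 to 5.03 in KI and 6.79 to 7.43 in WT GMP with 4 called lower. Hepatocyte markers averaged 5.78 to 5.97 in KI and 6.22 to 7.17 in WT ST-HSC, and 5.30 to 5.84 in KI and 5.61 to 6.78 in WT GMP, with 1 of 7, Afp, called lower in each population. In GMP, megakaryocyte markers gave 2 of 9 calls, both higher, erythroid markers 0 of 8 by limma with 3 higher at an unadjusted p under 0.05, and long-term HSC markers 1 of 10, Hoxa9, which was lower. The part of these cells in the values of the 8 genes was not tested.

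Between the WT populations, 7 of the 8 genes were lower in GMP than in ST-HSC by means, whether the values were taken as deposited, quantile normalized over all arrays or with each array's median subtracted. As a description without a test, Procr differed most, at -3.29 as deposited and -2.98 after subtraction of the medians. Slamf6 followed at -2.58, which includes the high WT ST-HSC replicate, then Slamf1 at -1.98, Thy1 at -1.58, Cd34 at -1.37, Ly9 at -0.91 and Cd48 at -0.69. Cd84 differed by -0.27 as deposited and by 0.04 after subtraction of the medians. Between the KI populations the same genes differed by -4.02 for Procr, -3.77 for Slamf1, -2.83 for Cd34, -1.27 for Slamf6, -1.09 for Ly9, -0.86 for Cd48 and -0.46 for Thy1, and by 0.16 for Cd84.

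Slamf1, Cd48, Ly9, Cd84 and Slamf6 lie in 1 cluster on chromosome 1. In the RefSeq order, Ly9 is followed by Slamf7, Cd48, Tma7-ps, Slamf1, Cd84 and Slamf6, with Itln1 and Cd244a before Ly9 and Vangl2 and Nhlh1 after Slamf6. Tma7-ps had no probe set. In ST-HSC, Slamf1 was called higher and Slamf7, a SLAM receptor of NK, plasma and myeloid cells, was called lower (difference -2.88, SE 0.46, adjusted p = 0.00822, limma), while Cd48 between them differed by 0.16. Cd244a, the CD48 receptor, differed by 0.21 (adjusted p = 0.848, limma), and Vangl2 outside the cluster by -0.60 (adjusted p = 0.471, limma). In GMP these genes did not pass, with the smallest adjusted p at 0.0942 for Ly9 (limma), and Slamf7 differed by -0.30 (adjusted p = 0.859, limma). The called genes, Slamf7 and Slamf1, differed in opposite directions and are separated by Cd48 and Tma7-ps.

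**Figure D3:**
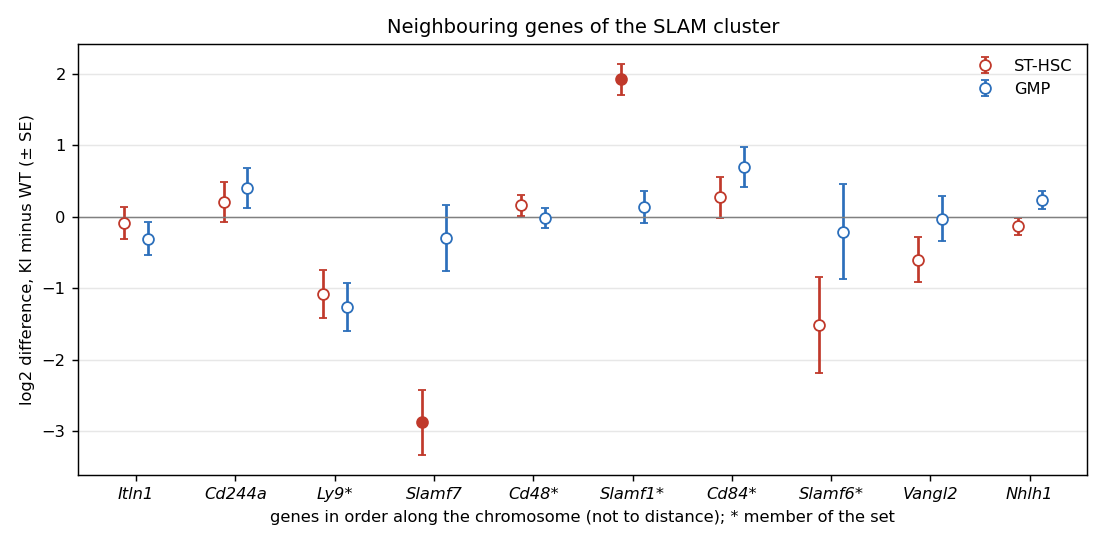
KI minus WT difference in log2 units (y axis, with SE from the limma fit) for genes in their order along the chromosome, not to distance, in ST-HSC (red) and GMP (blue), filled where the adjusted p was under 0.05. Slamf1 at 1.92 and Slamf7 at -2.88 in ST-HSC are the filled points, on opposite sides of 0.

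Of 14 SLAM partners (other receptors of the family and the proteins that bind their tails), 12 were measured. In ST-HSC, 2 were lower and 10 did not pass, with a median difference of -0.05. Slamf8, a receptor of myeloid cells, was lower there (difference -1.94, adjusted p = 0.0383, limma) along with Slamf7. In KI ST-HSC Slamf8 averaged 3.47 and Slamf7 4.68, against 5.42 and 7.56 in WT. In GMP, 1 of the 12 was higher, Fyn, the kinase that SAP recruits (difference 1.5, adjusted p = 0.0198, limma), with a median of -0.04. A second Fyn probe set in GMP gave 0.56 and did not pass (adjusted p = 0.578, limma). Ptpn6, the phosphatase SHP-1, differed by -0.73 in ST-HSC (adjusted p = 0.181, limma).

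Of 18 other surface markers used in hematopoietic gates, 15 were measured, with 1 higher and 4 lower in KI ST-HSC, 3 lower and 12 not called in KI GMP-like cells, and medians of -0.20 and -0.02. Fcgr3, which encodes the Fcγ receptor III of the GMP gate, was 1.68 higher in KI ST-HSC (adjusted p = 0.00165, limma) and differed by 0.63 in GMP (adjusted p = 0.157, limma). Fcgr2b, which encodes receptor II of the same gate, did not pass, with differences of -1.30 in ST-HSC (adjusted p = 0.397, limma) and -2.13 in GMP (adjusted p = 0.109, limma), where KI and WT arrays did not overlap. The c-kit gene Kit, part of both gates, differed by -0.20 in ST-HSC (adjusted p = 0.850, limma) and by 0.30 in GMP (adjusted p = 0.710, limma). Its second probe set had the other sign in ST-HSC, at 0.24 without overlap (adjusted p = 0.723, limma), and differed by 0.38 in GMP (adjusted p = 0.464, limma).

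Il7r, the interleukin-7 receptor, differed by -4.74 in ST-HSC (adjusted p = 0.00523, limma), and its second probe set by -1.84 without passing (adjusted p = 0.0603, limma), while in GMP it differed by 1.55 (adjusted p = 0.341, limma). Flt3, the FLT3 ligand receptor, differed by -2.69 in ST-HSC (adjusted p = 0.0215, limma) and by -1.70 in GMP without passing (adjusted p = 0.130, limma). Cd27, a costimulatory receptor of the TNF family, differed by -2.45 in ST-HSC (adjusted p = 0.0230, limma) and by -3.32 in GMP (adjusted p = 0.00589, limma).

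Ptprc, which encodes the leukocyte antigen CD45, differed by -2.62 in ST-HSC (adjusted p = 0.0128, limma) and by -4.16 in GMP (adjusted p = 0.00122, limma). Its second probe set was lower in ST-HSC as well and missed the threshold in GMP (adjusted p = 0.0554, limma). Cd93, a C-type lectin-like receptor of early progenitors, was lower in GMP (difference -1.65, adjusted p = 0.0116, limma) and did not pass in ST-HSC (difference -0.62, adjusted p = 0.356, limma). Its other probe sets did not pass in ST-HSC either. In GMP they were called lower as well, except that with a difference of -0.57, where KI and WT overlapped (adjusted p = 0.502, limma).

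Of 14 Ly6 and GPI-anchored genes, the class to which Ly6a and Thy1 belong, 11 were measured and 1, Cd24a, was called, with medians of 0.00 in ST-HSC and -0.08 in GMP. Cd24a, the heat-stable antigen of maturing blood cells, differed by -2.47 in ST-HSC (adjusted p = 0.00280, limma) and by -2.25 in GMP (adjusted p = 0.00627, limma), and both of its other probe sets were lower in both populations. Ly6k, Ly6e and Prnp, which came next by p, did not pass, with adjusted p of 0.457 in ST-HSC, 0.499 in GMP and 0.518 in ST-HSC. Their other probe sets did not pass either. That of Prnp differed by 2.22 in ST-HSC without overlap (adjusted p = 0.0618, limma). That of Ly6e differed by 1.29 in GMP without overlap (adjusted p = 0.0731, limma), and that of Ly6k by -0.02 in ST-HSC (adjusted p = 0.974, limma). The Ly6 genes nearest to Ly6a in sequence, Ly6c1 and Ly6c2, had no probe set of 1 symbol.

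**Figure D4:**
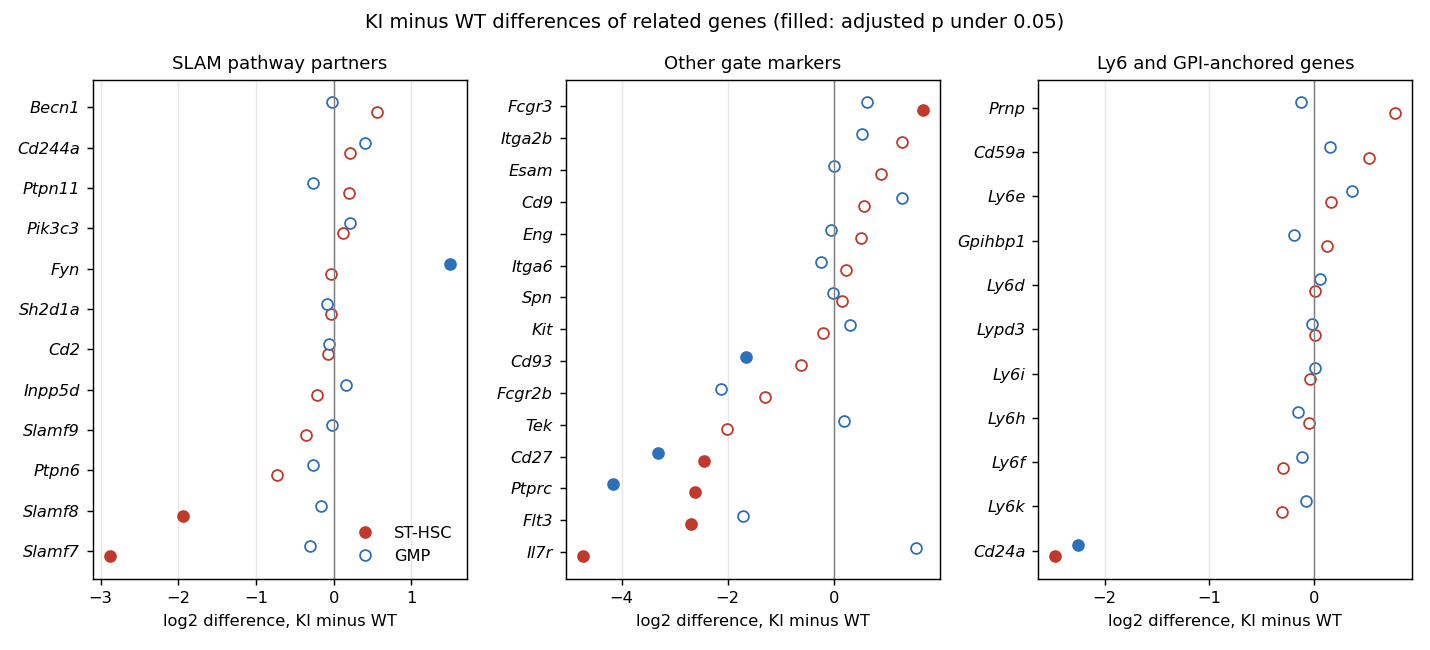
KI minus WT difference in log2 units (x axis, scaled to each panel) of the measured genes of 3 lists, SLAM partners, other gate markers and Ly6 or GPI-anchored genes, in ST-HSC (red) and GMP (blue), filled where the adjusted p was under 0.05. Cd27, Ptprc and Cd24a are filled on the left in both populations, and Fcgr3 at 1.68 in ST-HSC and Fyn at 1.5 in GMP are the filled points on the right.

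Over the 12 arrays, with the mean of each population subtracted, the genes with a pattern most like that of Slamf1 were Papss2, a sulfate donor synthetase (Pearson r = 0.962), Unc45b, a myosin chaperone (0.958), and 1700037H04Rik (0.955). Those most like Cd34 were Igfbp4, an insulin-like growth factor binding protein (0.990), B4galt6, a galactosyltransferase (0.984), and Mef2c, a transcription factor of muscle, lymphoid and myeloid cells (0.984). Like Cd34, all 3 were lower in KI in both populations, B4galt6 with differences of -2.56 in ST-HSC and -5.86 in GMP. This direction follows from the choice by r, because only the population means were subtracted. Among the members, r was 0.843 between Cd34 and Ly9, 0.655 between Cd34 and Thy1 and -0.799 between Slamf1 and Thy1. The arrays share their genotype groups, and these correlations are descriptions over 12 points.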

How the data were processed

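Per the labels, the authors amplified 10 ng of total RNA linearly, hybridized each sample to 1 Affymetrix MG430 v2 array and normalized the arrays by RMA. RMA corrects background, aligns the array distributions and gives 1 log2 value per probe set, which compresses small differences at low signal. The file as deposited holds log2 values for 45101 probe sets. The sources used here do not say whether ST-HSC and GMP arrays were normalized together. The number of arrays, not read depth, limits the precision.

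After 64 control probe sets were left out, the other 45037 went into limma 3.58.1 (R 4.3.3, lmFit and eBayes with its default prior) on all 12 arrays with 4 group means and 8 residual degrees of freedom, without a filter on low values. Of these, 34945 have 1 gene symbol in the platform annotation, 932 several and 9160 none. An exact permutation test of 3 arrays against 3 cannot give a two-sided p below 0.1. The code was tested on simulated data.

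The members and gene lists were chosen with earlier results of these data known. Named genes are the members, up to 4 genes of each of 3 lists (SLAM partners, gate markers, Ly6 and GPI-anchored genes) with the smallest adjusted p, Spi1, Xist and the 3 genes most like Slamf1 and Cd34. Kit, Flt3, Cd93, Fcgr2b, the genes beside the SLAM cluster, and single genes of the 9 cell type marker lists were named after their values were seen. Alternatives were other normalizations, filters, fits, SAM written anew, the methods' t-test, Xist terms, the replicate block and leaving out each array.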

Additional observations from a re-analysis of the deposited data

How the results depend on the processing

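Cd34 was called lower in KI GMP-like cells by every alternative except the methods' t-test after adjustment, and Slamf1 and Cd34 were called in ST-HSC by all except that t-test and SAM. In ST-HSC, 3 of the 8 genes were called in the reported fit and 0 by SAM and by the adjusted t-test, and in GMP, 1 was called and the adjusted t-test gave 0. For the difference between the populations the mean of probe sets gave 2 calls (Slamf1 and Cd34) and the fit without the WT arrays of high Xist gave 1 (Slamf6), against 0; the latter fit rests on 1 WT array in each population. Probe sets called over the array numbered 996 in ST-HSC and 959 in GMP. They became 162 and 43 by SAM, 7 and 2 by the adjusted t-test and 5353 and 4516 by the unadjusted one, and in GMP 246 with the 6 arrays alone, 607 with Xist as a covariate and 449 without the WT arrays of high Xist. Leaving out 1 array gave 2 to 3 genes called in ST-HSC, 1 to 1 in GMP and 0 to 1 for the difference, and 491 to 1039 and 548 to 1093 probe sets, the lowest without KI ST-HSC replicate 2 in both. ST-HSC calls were 573 without KI ST-HSC replicate 3. GMP calls were 555 without KI GMP-like replicate 3, and 553 and 594 without WT GMP replicates 1 and 3. The cause was not tested.

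Among the KI minus WT differences, signs turned only in ones that were not called. In GMP, Cd48 became 0.0528 and 0.0542 under quantile normalization over all arrays and within a population, and ranged from -0.0825 to 0.0479 when 1 array was left out (0.00207 and 0.0321 without KI GMP-like replicates 1 and 2, the highest without WT GMP replicate 2). Slamf1 in GMP became -0.00653 with the probe sets averaged and -0.0189 with Xist as a covariate, and ranged from -0.0108 without KI GMP-like replicate 1 to 0.243. Slamf6 in GMP became 0.0126 with the probe sets averaged. Procr in ST-HSC became -0.110 with Xist as a covariate and -0.141 without the WT arrays of high Xist. The Ly9 difference between the populations became 0.00899 without those arrays and ranged from -0.444 to 0.220 with 1 array left out (positive without KI GMP-like replicate 3, at 0.0770, and highest without WT GMP replicate 3). As a description, Cd84 between the WT populations became 0.0363 with medians subtracted. The Thy1 call in ST-HSC was also lost with the 6 arrays alone (adjusted p = 0.0511, limma) and with Xist as a covariate (-1.66, adjusted p = 0.138, limma).

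Deviations of same-numbered KI and WT arrays correlated at -0.04 to 0.07, and samples were not treated as paired by number. Same-numbered WT ST-HSC and WT GMP arrays correlated at 0.147, 0.164 and 0.0618 and shared their Xist status, and same-numbered KI arrays of the populations at -0.100 to 0.0346. With the replicate block, the calls were 3 and 1 genes and 884 and 798 probe sets, and it ended no call among the 8 genes.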
